A study of Mus musculus with 9 samples.

Results

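Cones that carried at least as many transcripts of the middle-wavelength opsin (M-opsin, Opn1mw) as of the short-wavelength opsin (S-opsin, Opn1sw) were selected from single-cell RNA-sequencing (scRNA-Seq) of mouse retina and are called M-opsin cones. A cell was a member when at least 3 of the 5 cone genes Arr3, Gnat2, Pde6h, Pde6c and Cngb3 had 1 or more unique molecular identifiers (UMIs, each tagging a captured RNA molecule), when these 5 genes together made up at least 5 of every 10000 UMIs, and when Opn1mw had at least 1 UMI and no fewer than Opn1sw. Of the 31089 cells, 3119 met the cone part of this rule, and 1264 were M-opsin cones. In another 1436 cells Opn1sw exceeded Opn1mw, here called S-opsin cones, and 419 had no UMI of either opsin. The measured opsin and cone gene counts chose the cells, so the levels of these 7 genes are given as a description, and the tests concern other genes.

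Cones are the photoreceptors of daylight vision. Each packs an opsin into the membrane stacks of its outer segment, and light absorbed by the opsin activates the cone transducin (Gnat2), which turns on the phosphodiesterase (Pde6c with its inhibitory subunit Pde6h) and so closes the cyclic-nucleotide-gated channel (Cnga3 with Cngb3), until cone arrestin (Arr3) shuts the opsin off. Mice have a middle-wavelength and an ultraviolet-sensitive short-wavelength opsin. Most mouse cones make both in proportions that run from mainly M-opsin in the dorsal retina to mainly S-opsin in the ventral retina, a gradient that depends on thyroid hormone receptor beta (Thrb) and the retinoid X receptor gamma (Rxrg).

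The study deleted 2 related microRNAs, miR-204 and miR-211, in the retinal pigment epithelium (RPE), the layer that supports the photoreceptors, and asked what the loss does to the retina. All 9 mice were labelled RPE65-ERT2-Cre.miR-211fl.miR-204fl, that is, with floxed alleles of both microRNAs and a tamoxifen-dependent Cre under the RPE65 promoter, so the cones themselves were not the cells aimed at. The 4 control mice (S01 to S04) had been injected with corn oil, and the 5 dKO mice (S05 to S09) with tamoxifen at 75 mg/kg in corn oil, on 5 days from postnatal day 28. Retinas were taken 6 months after this induction. The deletion and the tamoxifen itself cannot be told apart in this design. S06 and S07 have the same animal number in their labels, but their sex genes differed, and they were counted here as different mice.

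The promoter windows of the opsin pair that defines these cells are shown because the counts of these genes set the rule. Each is the 250 bases before the start of the canonical transcript in GENCODE M39 on GRCm39, read on the strand of the gene. The Opn1mw window lies at chrX:73170820-73171069 on the plus strand, ahead of the gene. The Opn1sw window lies at chr6:29380513-29380762 on the minus strand, and a longer annotated Opn1sw transcript runs through it as intron. Capitals mark AGGTCA or its complement TGACCT, the half-site that nuclear receptors such as Thrb and Rxrg can recognise.
Opn1mw: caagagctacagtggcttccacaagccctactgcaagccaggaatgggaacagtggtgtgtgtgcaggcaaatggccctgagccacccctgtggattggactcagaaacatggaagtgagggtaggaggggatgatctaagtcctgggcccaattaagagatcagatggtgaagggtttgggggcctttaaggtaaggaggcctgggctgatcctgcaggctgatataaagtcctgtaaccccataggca
Opn1sw: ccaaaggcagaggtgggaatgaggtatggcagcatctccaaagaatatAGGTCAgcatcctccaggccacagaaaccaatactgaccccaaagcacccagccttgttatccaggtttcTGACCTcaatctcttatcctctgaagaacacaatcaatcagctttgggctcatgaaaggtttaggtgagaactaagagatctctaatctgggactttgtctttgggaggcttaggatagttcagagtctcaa
The Opn1sw window held 2 matches, at 202 to 197 bases before the start on the gene's strand and at 132 to 127 bases before it on the other strand. The Opn1mw window held none. Among 21738 windows of the same length before protein-coding genes, 2853 (13.1%) held at least 1 match on either strand. The sequence TAATCC or GGATTA, which the photoreceptor factor Crx can bind, was in neither opsin window and in 1520 (6.99%) of all windows.

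The mice gave between 15079143 and 66528160 UMIs. Libraries S04, S05 and S07 stood apart. Rods made up 77.4% to 87.6% of their cells against 39.1% to 52.3% in the others, and their M-opsin cones had at least 417 CPM (UMIs scaled to a total of 1000000) of Y-linked genes and 37.1 to 57.5 CPM of Xist, against 1422 to 1692 CPM of Xist elsewhere. These 3 libraries are 1 control and 2 dKO mice. Some gene comparisons are also given without them, whereas the shares per mouse are not. The sex genes of these 3 libraries were those of males, and those of the other libraries were of females. S06 had 1422 CPM of Xist and 4.66 CPM of Y-linked genes, and S07 37.8 and 417 CPM, so these 2 differed in sex.

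Between 60 (S05) and 257 (S02) M-opsin cones came from each mouse, and 137 to 174 from each of 8 sublibraries. Their median depth was 12710.5 UMIs and 3712 genes per cell. All 5 cone genes were found in 1065 of them, 4 in 107 and 3 in 92. The label was checked with cone genes that the rule did not use. The cone channel subunit gene Cnga3 averaged 191 ± 40.1 CPM (SD, 9 mice) in M-opsin cones, 195 ± 34.5 in S-opsin cones and 1.42 ± 0.335 in rods, and the cone transducin gamma subunit gene Gngt2 105 ± 26.7, 125 ± 31.8 and 1.77 ± 0.284 CPM, and both lay above rods in 9 of 9 mice. The genes of the rule were high because the rule asked for them. Arr3 averaged 8206 ± 2365 CPM in M-opsin cones, 5629 ± 1261 in S-opsin cones and 42.9 ± 3.42 in rods. For Gnat2 the levels were 642 ± 175, 695 ± 145 and 5.24 ± 0.766 CPM in the same order, and for Pde6h 324 ± 71.9, 382 ± 75.7 and 2.89 ± 0.622 CPM. Opn1mw averaged 2317 ± 704 CPM in M-opsin cones, 627 ± 140.4 in S-opsin cones and 8.72 ± 1.51 in rods.

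The lower edge of the rule let in cells that carried little cone RNA. In 183 of the M-opsin cones (14.5%) the cone genes made up fewer than 50 of every 10000 UMIs, where the median of all members was 176. These 183 cells had a median of 2 Opn1mw UMIs against 41 in the other 1081, and 67.8% of them had at least 3 of 5 markers of a further retinal cell type other than rods, against 15.5% of the others. Rod markers, at least 4 of 5, were found in 65.6% and 20.6%. The 183 cells held 24.7% of all M-opsin cone UMIs. Of these UMIs, the other 1081 cells held 1494842 of 1619631 in S01 and 2951048 of 3899752 in S02. In S03 they held 2238314 of 2469507 and in S04 1002674 of 1253089. In S05 they held 541655 of 1050832, in S06 2438937 of 3217067 and in S07 1428637 of 2910355. In S08 it was 1502860 of 1891719 and in S09 1748876 of 2058366. The 183 cells thus weighed most in the dKO mice S05 and S07. At the edge itself, 14 members had a cone gene sum of 5 to under 6 per 10000 and 19 cells with a sum of 4 to under 5 met the other parts of the rule, both with a median of 1 Opn1mw UMI. At the opsin edge, 62 members had an Opn1mw count equal to or 1 above a detected Opn1sw count, and 86 cones had 1 Opn1sw UMI too many to be members.

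Most M-opsin cones had little or no S-opsin transcript, and the remainder formed a broad group with both. No Opn1sw UMI was found in 770 of them and at least 1 in 494. Opn1sw made up under 5% of the opsin UMIs in 878 cells, 5% to under 20% in 88 and 20% to 50% in 298, and the counts were equal in 41. In bins of 5% among cells with at least 10 opsin UMIs, each bin from 10% to 35% held 19 to 25 M-opsin cones and the bins from 40% to 50% held 64 and 65. Thinned to 9412 UMIs per cell, 34.1% of the 948 remaining M-opsin cones had an Opn1sw UMI (39.1% of all 1264 before thinning), against 6.74% of rods, 6.86% of Müller glia and 5.02% of amacrine cells thinned alike, cell types that do not make cone opsin.

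**Figure D1:**
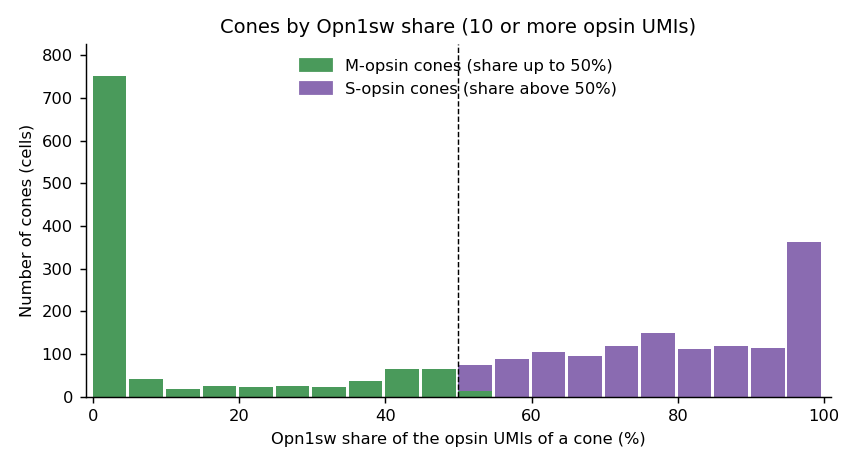
Number of cones (vertical axis) by the percent of their opsin UMIs that were Opn1sw (horizontal axis, bins of 5%), for cones with at least 10 opsin UMIs of all 9 mice. M-opsin cones are green and S-opsin cones purple, and the green part above the dashed line at 50% holds cones with as many UMIs of one opsin as of the other. M-opsin cones pile up below 5%, are few in each bin from 10% to 35% (19 to 25 cells) and more numerous from 40% to 50% (64 and 65).

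The share of M-opsin cones was compared between control and dKO mice as 1 of 5 values per mouse, with exact permutation tests (two-sided, smallest possible p = 0.00794) adjusted over the 5. M-opsin cones were 47.5%, 51.8%, 47.1% and 48.1% of the cells of the cone rule with an opsin UMI in S01 to S04, and 38.5%, 43.0%, 44.1%, 46.2% and 48.8% in S05 to S09. The control and dKO values overlapped through S09 alone. The means were 48.7% ± 2.15 (SD, n = 4) and 44.1% ± 3.85 (n = 5), a difference that did not pass (exact permutation p = 0.0794, adjusted p = 0.397). The difference was -4.54 percentage points. Without S09, the mouse that overlaps the control values, it was -5.71 (exact permutation p = 0.0286, the smallest that 4 against 4 mice allow), and without any 1 of the other 8 mice it did not pass (exact permutation p = 0.0893 to 0.196). With cones thinned to 1 depth it was -9.67 (exact permutation p = 0.0476), and with Opn1mw at least 2 UMIs and at least 2 times Opn1sw it was -3.75 (exact permutation p = 0.151), all before adjustment.

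Over all cones of a mouse, Opn1mw was 51.1% ± 4.35 of the opsin UMIs in control and 45.9% ± 5.07 in dKO mice (exact permutation p = 0.159, adjusted p = 0.397). M-opsin cones as a share of all cells were 4.52% ± 1.79 and 3.74% ± 0.739 (exact permutation p = 0.413, adjusted p = 0.688), and rod yield, which differed widely between libraries, enters this share. This difference of -0.777 percentage points was -0.0681 without S02 and -1.35 without S01. The difference in the Opn1mw share, -5.17 percentage points, was -3.14 without S02. The median depth per M-opsin cone was 12457 ± 1083 and 12841 ± 1582 UMIs (exact permutation p = 0.722). Rod genes, a list that includes the arrestin gene Sag (found in 98.9% of M-opsin cones), made up 0.639% ± 0.442 and 0.905% ± 0.690 of M-opsin cone UMIs (exact permutation p = 0.587, adjusted p = 0.722). The last value was 1.30% in S04, 1.06% in S05 and 2.05% in S07, and 0.407% to 0.510% in the other 6 libraries.

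**Figure D2:**
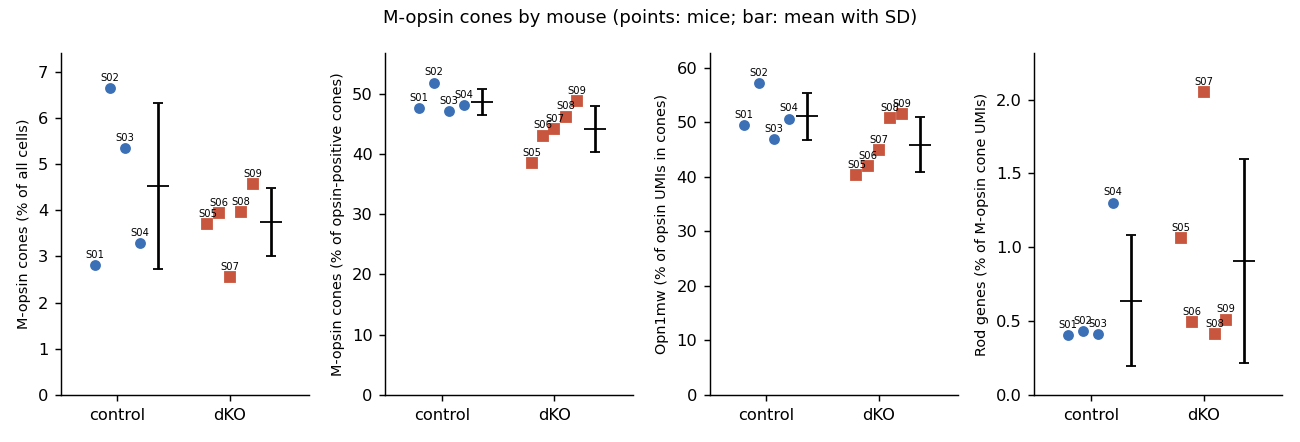
Values per mouse, from left to right the M-opsin cones as a percent of all cells, as a percent of cones with an opsin UMI, the Opn1mw percent of the opsin UMIs of all cones, and the rod genes' percent of the UMIs of M-opsin cones, with each point 1 mouse and the group mean and SD beside the points. For the share of cones, 4 of 5 dKO mice lie below all control mice and S09 lies among them.

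M-opsin and S-opsin cones of the same mice differed in a limited set of genes, where the kinds had been set by the opsin counts of the same cells. Counts were summed over the cells of a kind in each mouse and compared by a quasi-likelihood test in edgeR, with the mouse as a block and Benjamini-Hochberg adjustment, and levels are CPM after TMM scaling (a correction for composition), except that values across rods, the 4 opsin classes and other sets of cells, and marker sums, are CPM without it. Of 10890 genes, 451 (4.14%) had an adjusted p under 0.05, 203 higher in M-opsin cones (1.86%) and 248 lower (2.28%). Without the genes of the rule, of which Arr3, Opn1mw, Pde6h and Opn1sw were among the 451, these were 201 and 246. The differences were mostly small, with a median absolute log2 difference of 0.45, and 65 of the 451 exceeded 1. Long noncoding RNAs were 50 of the 451 (11.1%) and 6.22% of all genes tested. Without S03 288 genes passed, without S09 289, and without the block 88.

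Transcription factors that pattern the retina were among them. Nr2f2, a nuclear receptor enriched in the dorsal retina, averaged 17.7 ± 5.17 CPM (SD, n = 9) in M-opsin cones and 5.62 ± 5.24 in S-opsin cones (log2 difference 1.74, SE 0.37, adjusted p = 0.0163). It was higher in M-opsin cones of 8 of 9 mice, all but S08. Vax2, the homeobox factor of the ventral retina, ranged over 6.86 to 42.5 (median 14.8) CPM in M-opsin and 21.1 to 67.3 (median 35.8) in S-opsin cones, and was lower in M-opsin cones of all 9 mice (log2 -1.06, SE 0.17, adjusted p = 0.00329). Its highest M-opsin cone levels were those of S05 and S07, so the ranges overlap between mice although the order within each mouse was the same.

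Thrb, the receptor needed for M-opsin, was 1.19-fold higher in M-opsin cones (log2 0.25, SE 0.06, adjusted p = 0.0315), in 8 of 9 mice. Rxrg, its partner in repressing S-opsin, was 1.31-fold lower (log2 -0.39, SE 0.09, adjusted p = 0.0243). Of the dorsoventral and opsin-patterning list, 13 of 25 genes were tested, and these 4 were the ones that passed, beside 4.14% of all genes, with a list median log2 difference of 0.03 against -0.00155 over all genes. Samd7, a photoreceptor repressor that keeps cone and rod genes apart, averaged 168 ± 31.7 CPM in M-opsin and 80.1 ± 45.2 CPM in S-opsin cones (adjusted p = 0.00152). Of 23 photoreceptor transcription factors tested 5 passed, beside the same 4.14%. Thrb, Nr2f2 and Samd7 were higher in M-opsin cones and Rxrg and Mef2d, a factor of photoreceptor maturation, lower. The Lim-homeobox gene Lhx4 (100.1 ± 26.7 against 51.2 ± 15.7 CPM, adjusted p = 6.44e-05) lay outside the lists and was picked after its values were seen.

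Among genes with at least 20 CPM in the higher kind, the 12 with the lowest p that were higher in M-opsin cones included 4 long noncoding RNAs and the protein-coding Cdh12, Smug1, Alpk2, Itprid2, Tbc1d2, Grip1, Tshz2 and D430019H16Rik. All 12 were higher in 9 of 9 mice. Cdh12, a cadherin of neuronal adhesion (ENSMUSG00000040452, chromosome 15 from 20449351 to 21589622 on the plus strand of GRCm39), ranged over 863 to 1933 (median 1525) CPM in M-opsin cones and 97.3 to 448 (median 264) CPM in S-opsin cones, without overlap, a 5.90-fold difference (log2 2.56, SE 0.22, adjusted p = 2.02e-05). Smug1, a uracil-DNA glycosylase of base excision repair, ranged over 151 to 287 (median 213) CPM and 25.2 to 69.3 (median 44.1) CPM (log2 2.29, SE 0.19, adjusted p = 1.04e-05). The lowest M-opsin cone value of either gene was that of S07, and it still lay above every S-opsin cone value.

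Smaller or weaker genes of the same 12 followed this order. D430019H16Rik averaged 37.9 ± 13.6 CPM in M-opsin and 3.98 ± 2.35 in S-opsin cones (log2 3.17). Alpk2, an alpha-kinase, averaged 40.9 ± 7.10 and 13.2 ± 2.27 CPM, and Itprid2, which binds inositol trisphosphate receptors, 211 ± 53.5 and 91 ± 10.1 CPM. The abundant genes differed least. Grip1, a scaffold of glutamate receptors, averaged 1133 ± 193 and 636 ± 160.0 CPM (log2 0.85), and Tshz2, a zinc-finger factor, 694 ± 131 and 468 ± 61.2 CPM (log2 0.56). The Rab regulator Tbc1d2 had a log2 difference of 1.14 and the noncoding A930001M01Rik of 1.26.

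On the other side stood genes that were lower in M-opsin cones. Ccdc136, a coiled-coil protein gene (ENSMUSG00000029769), ranged over 268 to 629.8 (median 541) CPM in M-opsin cones and 1301 to 2659 (median 2115) CPM in S-opsin cones, without overlap (log2 -2.14, SE 0.10, adjusted p = 4.54e-08), and had the lowest p of the genes outside the rule. Eya1, a transcriptional coactivator with phosphatase activity, ranged over 13.1 to 56.1 (median 27.4) CPM and 84.2 to 258 (median 164) CPM (log2 -2.20, SE 0.14, adjusted p = 9.92e-07). Syndig1l, related to a synapse differentiation gene, averaged 21.3 ± 4.92 and 90.4 ± 24.1 CPM (log2 -2.05). All 12 genes named on this side were lower in M-opsin cones of 9 of 9 mice.

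Cdcp3, a CUB-domain protein gene, averaged 229.9 ± 71.8 CPM in M-opsin and 970.1 ± 261 in S-opsin cones (log2 -2.10), and A930009A15Rik 20.5 ± 7.52 and 82 ± 20.8 CPM (log2 -2.0). The noncoding Gm31615 had a log2 difference of -1.32 and Gm12404 of -1.93. Modest differences in better expressed genes completed the 12. These were Pgs1, of cardiolipin synthesis (log2 -0.91), the kelch protein gene Klhl5 (-0.80), the corepressor Tle1 (-0.66), the potassium channel subunit Kcnab1 (-0.54) and the synaptic scaffold Magi2 (-0.32).

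**Figure D3:**
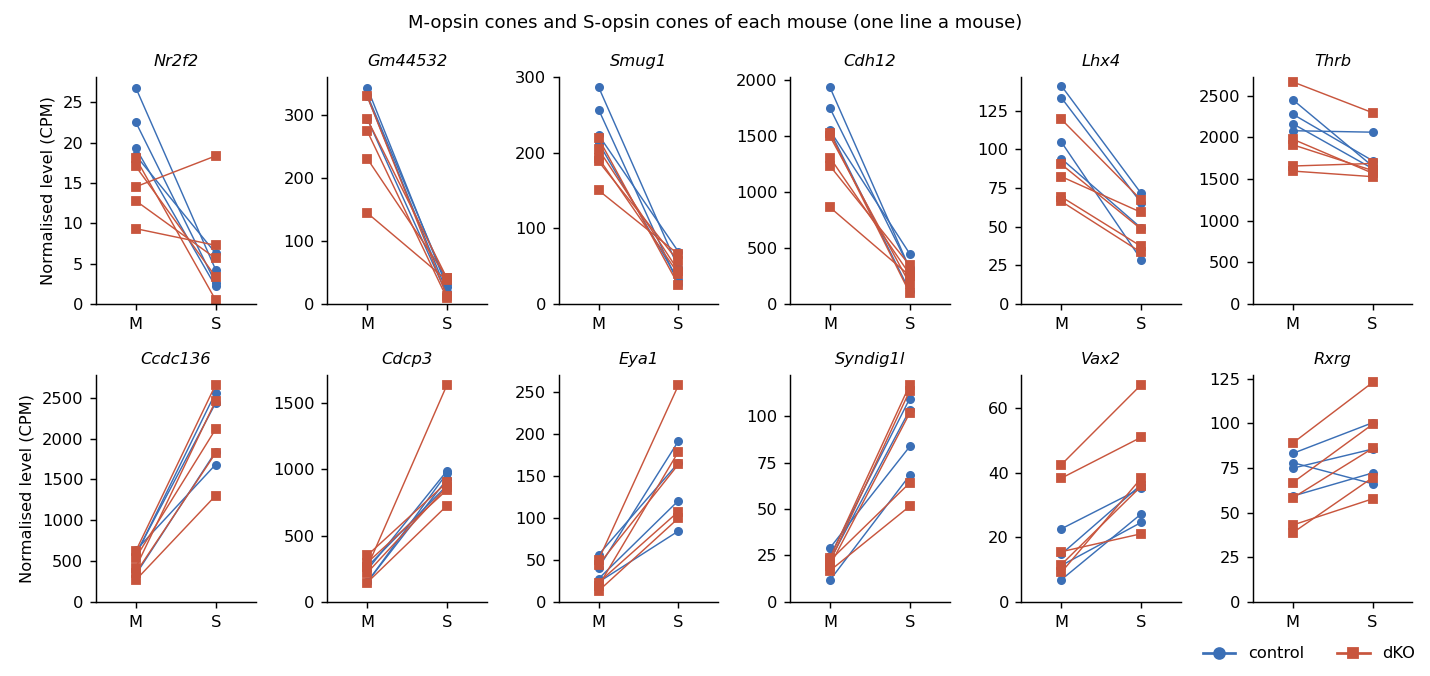
Normalised level (vertical axis, CPM from 0) of 12 genes in the M-opsin cones and the S-opsin cones of each mouse (horizontal axis), 1 line a mouse, control mice in blue and dKO mice in red. Gm44532, Smug1, Cdh12 and Lhx4 descend from M-opsin to S-opsin cones in 9 of 9 mice, and Ccdc136, Cdcp3, Eya1, Syndig1l and Vax2 ascend in 9 of 9.

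Several genes of transduction and transmission differed between the kinds. Of 22 further cone phototransduction genes tested, none was higher in M-opsin cones and 3 were lower, against 1.86% and 2.28% of all genes. These were Gnb3, the beta subunit of cone transducin (log2 -0.38, adjusted p = 0.00120), the opsin kinase gene Grk1 (-0.23, adjusted p = 0.0121) and Guca1a, an activator of guanylate cyclase (-0.42, adjusted p = 0.000519). The list's median log2 difference was -0.08. Of 36 ribbon synapse genes 6 passed, beside 4.14% of all genes. The vesicle calcium sensor gene Syt1 was higher (0.18) and 5 were lower, among them Unc13b (-0.18) and Rims2 (-0.20), which act in vesicle release, and the adhesion genes Nrxn3 (-0.58) and Elfn2 (-0.79), with a list median of -0.02. Of 25 outer segment genes, Cdhr1 (0.32), Rp1l1 (0.23) and the matrix proteoglycan gene Impg1 (0.52) were higher and the ciliary kinase gene Mak (-0.19) lower, again with a list median of -0.02.

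The share of all genes that passed, 4.14%, is the background for the counts of the other lists. Of 29 metabolic genes 1 passed, a share near that background. It was Nxnl2, which encodes a cone survival factor, at 15.4 ± 6.35 CPM in M-opsin and 8.47 ± 6.92 CPM in S-opsin cones (log2 1.02, adjusted p = 0.0127). Socs3, an inhibitor of cytokine signalling (4.63 ± 2.22 against 12.3 ± 4.04 CPM, log2 -1.46, adjusted p = 0.000132), and the survival gene Bcl2l1 (log2 -0.38) were lower, of 23 stress and survival genes. None of 13 retinoid cycle genes and none of 6 inflammation genes passed. Of 17 rod genes, Samd7 was higher and the rod arrestin gene Sag lower (log2 -0.32, edgeR adjusted p = 0.000289). Sag averaged 2254, 2809 and 2765 CPM in M-opsin cones, S-opsin cones and rods, without TMM scaling, so it was not confined to rods. The 5 rod markers were between log2 0.14 and 0.24 and none passed, nor did any marker of the other cell types.

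Several genes that passed lie next to each other in the genome. Of the 451, 89 had another of the 451 overlapping or within 100000 bases, a count for which no background over all genes was computed. They formed 57 pairs, of which 53 went in the same direction, where 8803 of 16611 such pairs among all tested genes (53.0%) did. Some pairs share a gene, as around Nr2f2, so the pairs are not independent. In 17 pairs the genes overlap, and since the strand used in counting is not given in the sources used here, reads of overlapping genes cannot be told apart. One group surrounds Nr2f2 (chromosome 7 from 70001692 to 70016519 on the minus strand). The noncoding B130024G19Rik (chromosome 7 from 70007192 to 70139733 on the plus strand) overlaps Nr2f2, Gm28258 and Gm44532, and further on Gm44812 (chromosome 7 from 70165215 to 70240016 on the plus strand) contains Gm35842.

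All of these were higher in M-opsin cones. Gm44532 (ENSMUSG00000108869) ranged over 145 to 344 (median 295) CPM in M-opsin and 9.0 to 42.1 (median 26.8) CPM in S-opsin cones (log2 3.53, SE 0.27, adjusted p = 5.46e-06), and Gm35842 averaged 21.5 ± 6.47 and 1.72 ± 0.678 CPM (log2 3.59). B130024G19Rik averaged 59.6 ± 15.4 and 12.7 ± 6.59 CPM, Gm44812 25.7 ± 9.87 and 2.64 ± 1.45 CPM, and Gm28258 15.9 ± 7.95 and 0.568 ± 0.805 CPM, 3 genes picked here for their position after the values were seen. A second group is Smug1 (chromosome 15 from 103061716 to 103078887 on the minus strand) with the noncoding D930007P13Rik, 5916 bases away on the same strand (27.2 ± 11 against 4.97 ± 1.86 CPM, log2 2.40).

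Of 3 genes that passed within 100000 bases of a gene of the rule that passed, 2 went in the same direction as it. Ccdc136 begins 7811 bases from Opn1sw and was lower in M-opsin cones, as Opn1sw was by construction. Kif4, a kinesin of mitotic cells, begins 7243 bases after Arr3 and averaged 169.9 ± 132 CPM in M-opsin and 67.2 ± 47.9 CPM in S-opsin cones (log2 1.32, adjusted p = 0.000299). Flna, which encodes an actin crosslinker, lies 70980 bases from Opn1mw and went the other way (log2 -1.04, adjusted p = 0.0108). Vax2 overlaps the antisense gene Vax2os, which averaged 31.2 ± 26.5 and 50.1 ± 29.8 CPM (log2 -0.85, adjusted p = 0.00389), and the Wnt-pathway receptor Lgr5 (log2 -0.76) overlaps A930009A15Rik on the opposite strand. Kif4, Flna, Vax2os and Lgr5 were likewise picked for position. Whether reads from one gene of a pair were counted to the other was not tested.

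Within the M-opsin cones, those without S-opsin were compared with those that also carried it. Among the 1087 cells with at least 10 opsin UMIs the median Opn1sw share was 0. So 643 cells without an Opn1sw UMI were set against 444 with one, whose median Opn1sw share was 26.2%. Of the 1087, 751 had an Opn1sw share under 5%, so part of the 444 had a share under 5%. Those without and those with Opn1sw had similar depth, with medians of 13039 and 13232 UMIs. With the mouse as a block, 49 of 8602 genes passed (0.57%), 24 higher (0.279%) and 25 lower (0.291%) in the cells without Opn1sw, and 47 without Arr3 and Opn1sw. A mouse held 20 to 119 cells of either kind, and single libraries moved this count. It was 21 without S02, 99 without S03, 31 without S05, 27 without S08 and 28 without S09, 27 without S04, S05 and S07 together, and 20 without the block. With cells under 5% Opn1sw set against cells of at least 20%, 39 genes passed, 26 of them among the 49.

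The M-opsin cones without Opn1sw had more of the genes that were also highest against S-opsin cones, in cells of the same mice and partly the same cells. Cdh12 ranged over 1432 to 2452 (median 2275) CPM in them and 418 to 1295 (median 948) CPM in those with Opn1sw (log2 1.34, SE 0.14, adjusted p = 0.000417), and Smug1 over 195 to 342 (median 296) and 129.9 to 218 (median 163) CPM (log2 0.85, SE 0.08, adjusted p = 0.000208). The values of Cdh12 did not overlap, and those of Smug1 overlapped because the lower S07 value lay under those of S03 and S06 with Opn1sw. Around Nr2f2, Gm44532 (425 ± 83.2 against 178 ± 57.5 CPM), B130024G19Rik (85.9 ± 17.5 against 37.8 ± 9.75 CPM), Gm44812 (log2 1.38) and Gm35842 (log2 1.33) were higher. Samd7 (0.61), Kif4 (1.23), D930007P13Rik (1.16), the carbonic anhydrase-related gene Car8 (0.68), the deubiquitinase gene Usp46 (0.48) and the noncoding C230014O12Rik (0.54) made up the rest of the 12 named, on the log2 scale. Usp46 missed the threshold under 7 of 22 alternatives.

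M-opsin cones with Opn1sw had more of a set led by Ccdc136, which ranged over 84.2 to 173 (median 110.1) CPM without and 468 to 1549 (median 1103) CPM with Opn1sw (log2 -3.17, SE 0.15, adjusted p = 1.68e-07). Syndig1l ranged over 1.02 to 12 (median 3.84) and 23.2 to 70.2 (median 49.4) CPM (log2 -3.51, adjusted p = 0.000342). Cdcp3 averaged 88 ± 68.4 and 435 ± 97.9 CPM (log2 -2.54, adjusted p = 0.000208). In each of these genes every mouse had the higher level in the cells with Opn1sw. The receptor tyrosine kinase gene Alk averaged 179 ± 68 and 388 ± 104 CPM (log2 -1.13, adjusted p = 0.00408), and Eya1 21 ± 15.1 and 57.4 ± 19.5 CPM (log2 -1.50).

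Lgr5 (log2 -1.04), the synaptic adhesion genes Elfn2 (-1.07) and Lrrc4 (-1.77), the membrane protein gene Plppr5 (-1.79) and the phospholipase gene Plcz1 (-1.47) were also lower without Opn1sw. The rod genes Nr2e3, a nuclear receptor of rods (log2 -0.87, adjusted p = 0.0188), and Cnga1, a subunit of the rod channel (log2 -0.63, adjusted p = 0.0214), were lower too. Nr2e3 missed the threshold under 8 and Cnga1 under 11 of 22 alternatives. All 5 rod markers together had a median log2 difference of -0.57, and the 4 tested Müller glia markers -0.38, of which none passed. The rod and glial markers thus lay on the side of the cells with Opn1sw, and their part in the result was not tested. Of the patterning genes, Nr2f2 averaged 24 ± 6.13 and 11.9 ± 5.38 CPM (adjusted p = 0.0708), Vax2 12.8 ± 12.7 and 24 ± 18.3 CPM (adjusted p = 0.164), and Thrb had a log2 difference of 0.19 (adjusted p = 0.319), so none of the 3 passed.

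Sorted into 4 classes by the Opn1sw share, cones with at least 10 opsin UMIs showed more than 1 shape of profile. The classes were under 5% (751 M-opsin cones), 5% to 50% (336 M-opsin cones), above 50% to 95% (967 S-opsin cones) and above 95% (358 S-opsin cones), and the values are mean CPM over 9 mice in that order, given as a description. Smug1 took 276, 134, 42.9 and 46.2 CPM and Cdh12 1996, 638, 243 and 264 CPM, a descent that ended at the third class. Ccdc136 took the opposite course with 129.8, 1346, 2084 and 2404 CPM. Thrb declined mainly at the last step, with 2263, 2067, 1939.5 and 1298 CPM.

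Other genes turned back at the S-opsin end. Alk was at 175, 442, 442 and 111 CPM and Plcz1 at 25.8, 98.3, 149 and 46.3 CPM, so both were highest in the middle classes, where cones carried both opsins, and low at either end. Cdcp3 took 89.3, 540.2, 1077 and 775 CPM and Syndig1l 3.89, 65.3, 104 and 69.8 CPM, with their peak in the third class. Tshz2 also dropped mainly at the last step, with 817, 596, 590.2 and 201 CPM. Nr2f2 was at 22.8, 7.85, 5.28 and 5.72 CPM, and its level in M-opsin cones with 5% to 50% Opn1sw was closer to that of S-opsin cones than to that of the other M-opsin cones, whereas Vax2 took 13.3, 25.9, 36.2 and 34 CPM.

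**Figure D4:**
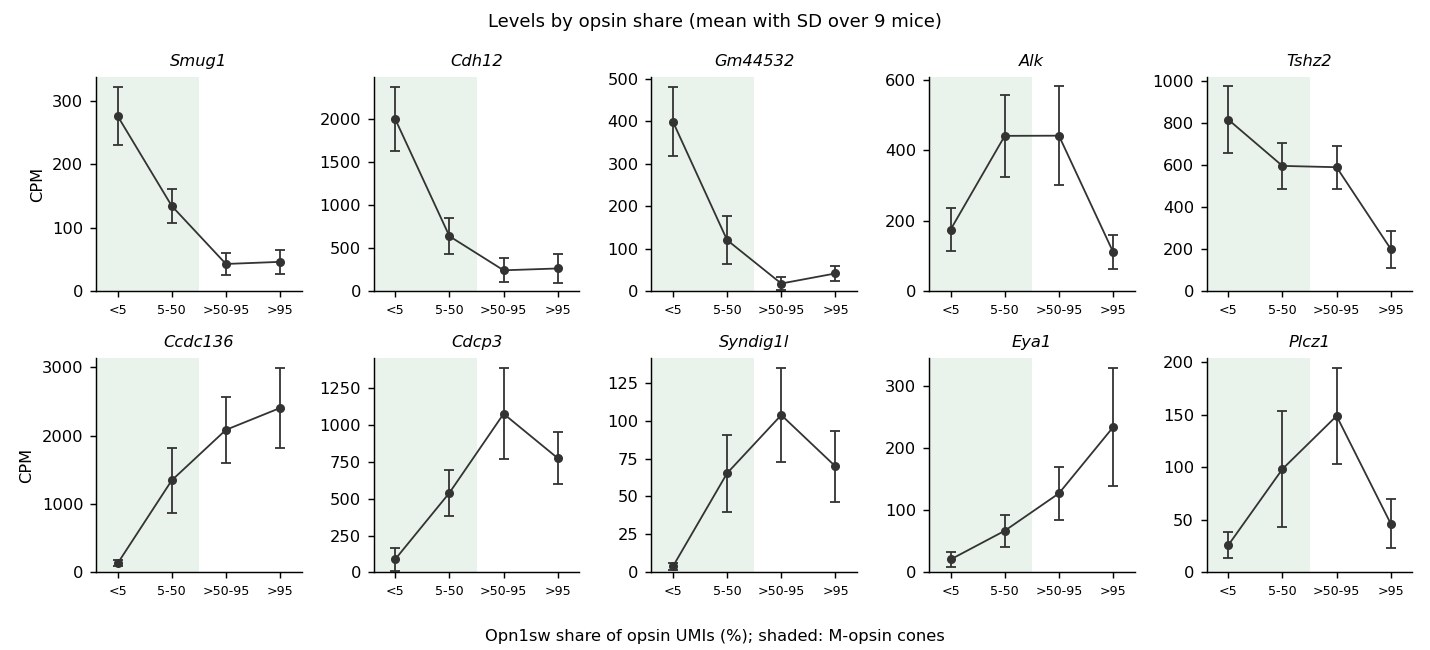
Mean CPM without TMM scaling (vertical axis, linear) of 10 named genes in 4 classes of cones by their Opn1sw share of opsin UMIs (horizontal axis), with the SD over 9 mice and the M-opsin cones shaded. Smug1 and Cdh12 are highest in the class at the left, Ccdc136 and Eya1 ascend from left to right, and Alk and Plcz1 are highest in the middle.

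Deletion of the microRNAs in the RPE was compared in M-opsin cones as 4 control against 5 dKO mice, and no gene passed. Of 11126 genes, 0 (0.0%) had an adjusted p under 0.05 by the edgeR quasi-likelihood test (Benjamini-Hochberg adjustment), with 0.606 the lowest. At an unadjusted p under 0.05 there were 528 (4.75%), 319 of them higher in dKO mice. In 147 genes (1.32%) the 2 groups did not overlap, where chance order has a probability of 0.00794 in each direction. Genes named below by p were picked from this comparison, so a lack of overlap in them is no separate support. DESeq2 called 7 genes and limma-voom 0, and with no filter on low counts edgeR called 6. The 7 were Nfib, Lama2, Slit2, St6galnac3, Pi4k2b and Sel1l3, and the collagen gene Col8a1 (log2 2.92, DESeq2 adjusted p = 0.0112). Without S02 1 gene passed, the receptor phosphatase gene Ptprk (log2 1.40, adjusted p = 0.00950), and without S04, S05 and S07 1 gene, Sel1l3. The 6 called with no filter were Sel1l3, Nfib, Lama2, Slit2, Col8a1 and the receptor kinase gene Kit. Col8a1, Kit and Ptprk were named after these counts were seen.

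Sel1l3, a gene related to a component of protein degradation in the endoplasmic reticulum (ENSMUSG00000029189, chromosome 5 from 53264417 to 53371269 on the minus strand), lay lower in dKO mice in both kinds of cone. It stood at 79.8, 135, 93.5 and 72 CPM in S01 to S04 and at 55.9, 18.2, 6.96, 21 and 14.1 CPM in S05 to S09. Every dKO mouse lay below every control mouse, with S05 nearest to them, whereas in cells with a cone gene sum of at least 50 per 10000 S05 lay among the control mice and 4 of 5 dKO mice below all of them. The log2 difference was -2.18 (SE 0.44, unadjusted p = 0.000376, adjusted p = 0.699). Of its 1167 UMIs, 12.0% were in M-opsin cones with a cone gene sum under 50 per 10000, which held 24.7% of all UMIs, and in the cells above 50 the log2 difference was -2.32 (unadjusted p = 0.000564). Without S04, S05 and S07 it was -2.53 (adjusted p = 0.0328). In S-opsin cones of the same mice, without TMM scaling, Sel1l3 was at 129.6, 155, 132 and 86.3 CPM in control mice. The dKO mice stood at 76, 32.3, 25.3, 50.5 and 40.8 CPM there, and the groups did not overlap. The share of all genes without overlap in S-opsin cones was not computed, and Sel1l3 was picked by p in M-opsin cones of these mice. In rods it was at 21.4, 17.9, 21.8 and 5.19 and 9.23, 22.8, 10.6, 18.1 and 21.9 CPM, where the groups overlapped.

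Other genes with the lowest p on the lower side had smaller differences. Pi4k2b, a phosphatidylinositol kinase gene, was at 16.2, 24.4, 22.5 and 20.9 CPM in control and 8.38, 12.5, 7.65, 9.67 and 6.02 CPM in dKO mice (log2 -1.24, adjusted p = 0.606). Rspo2, a secreted amplifier of Wnt signalling, was at 20, 21.8, 30.9 and 15.1 and 6.52, 13.1, 13.9, 11.3 and 10.5 CPM (log2 -0.96, adjusted p = 0.976), and Mcph1, of chromosome condensation, at 34.3, 36, 45.5 and 38.5 and 23.3, 27.1, 23, 29.5 and 29.6 CPM (log2 -0.54). The groups did not overlap in these 3 genes, as in 1.32% of all genes tested, and the 3 were picked by p. Fgf5, a fibroblast growth factor gene, had 112 UMIs in all, with a log2 difference of -1.20, and Sgpp2, which dephosphorylates sphingosine phosphate, a log2 difference of -0.60 with groups that overlapped. At most 23.6% of the UMIs of any of these 6 genes came from cells with a cone gene sum under 50.

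On the higher side, 4 of the 6 genes with the lowest p had most of their UMIs in such cells. Nfib, a transcription factor, was at 68.6, 95.3, 50.9 and 82.9 CPM in control and 161, 180.3, 169.7, 144 and 115 CPM in dKO mice, without overlap (log2 1.05, SE 0.19, adjusted p = 0.606). Of its 2451 UMIs, 74.9% were in cells with a cone gene sum under 50 and 202 in 1 cell. In cells above 50 the log2 difference was 0.74 (edgeR unadjusted p = 0.0187), the groups overlapped, and 3 of 5 dKO mice lay above all control mice. Without M-opsin cones that had 3 or more markers of another cell type the log2 difference was 1.06 (edgeR unadjusted p = 0.00161). Slit2, a guidance ligand, was at 132, 117, 102 and 109.7 and 257, 357, 505, 157 and 219 CPM (log2 1.38, adjusted p = 0.802). Here 57.6% of the UMIs were in such cells, 471 of 4668 in 1 cell, and the log2 difference became -0.24 once M-opsin cones with 3 or more markers of another cell type were left out.

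Lama2, a laminin chain gene, was at 3.74, 3.11, 3.34 and 0.837 and 18.6, 14.9, 21.2, 6.98 and 9.03 CPM (log2 2.25, edgeR adjusted p = 0.606). Of its 188 UMIs, 64.4% were in cells with a sum under 50. In cells with a sum of at least 50, S05 and S07 lay above all control mice, at 12.9 and 24.5 CPM without TMM scaling. There S06, S08 and S09 (1.64, 2.0 and 1.72 CPM) lay within the control range of 0.997 to 2.71 CPM. St6galnac3, a sialyltransferase gene, was at 20, 24.1, 17.5 and 15.9 and 38.2, 36.8, 35.8, 31.7 and 34.6 CPM (log2 0.84), with 58.2% of its UMIs in cells with a sum under 50. Its log2 difference was 0.37 without M-opsin cones that had 3 or more markers of another cell type (edgeR unadjusted p = 0.284). The remaining genes drew less on cells with a sum under 50, which held 36.1% of the UMIs of Rbm20 and 35.6% of those of Itpr1. Such cells held 24.7% of all M-opsin cone UMIs. Rbm20, a splicing factor, was at 19.3, 29.5, 26.3 and 28.5 and 41, 45.9, 49.4, 40.8 and 41.2 CPM (log2 0.75), and with cells above 50 alone its groups still did not overlap. Itpr1, an inositol trisphosphate receptor gene, was at 77.3, 91.2, 78.1 and 73.7 and 122, 125, 98.1, 119.8 and 111 CPM (log2 0.52). Without cells that had 3 or more markers of another type, Itpr1 was at log2 0.19 (edgeR unadjusted p = 0.267). Rbm20 was then at 0.53 (edgeR unadjusted p = 0.0116). Mean levels in rods of control and dKO mice, without TMM scaling, were 85.8 and 75.2 CPM for Rbm20. They were 220 and 189 CPM for Itpr1, 415 and 453 for Slit2 and 57.3 and 79.6 for St6galnac3. For Nfib they were 115 and 137 CPM and for Lama2 10.6 and 14.9. Except for Nfib in dKO mice, these lay above the M-opsin cone means on the same scale. Whether rod RNA adds to these differences was not tested.

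**Figure D5:**
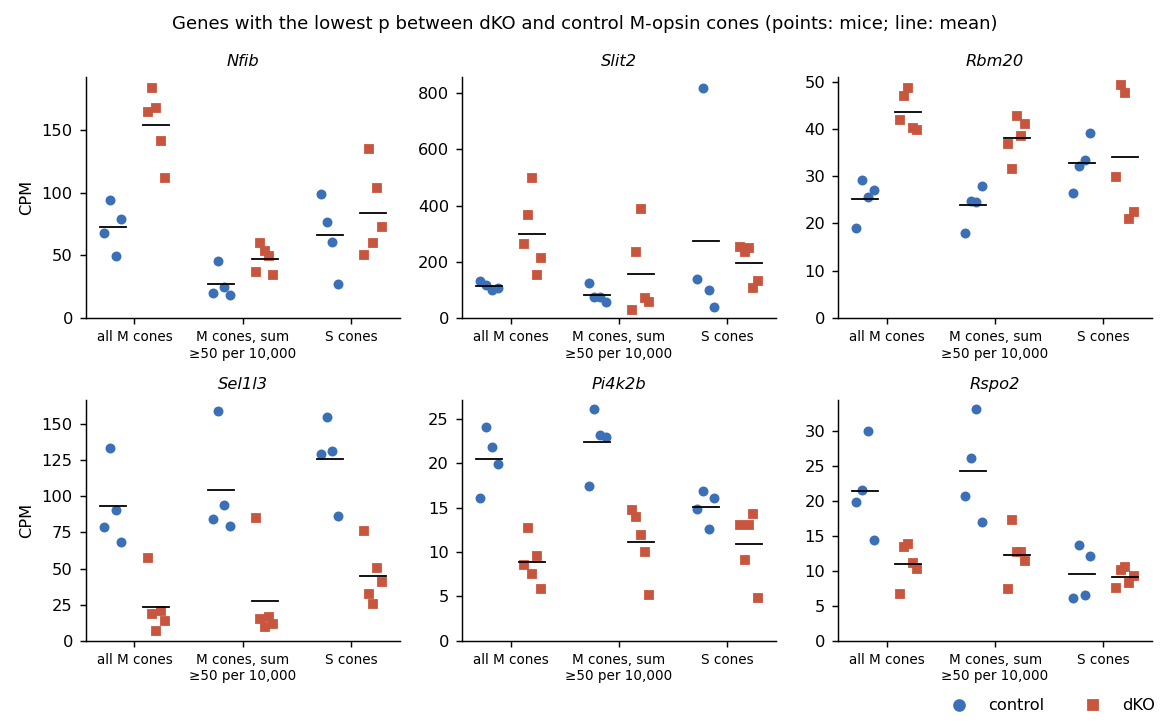
CPM (vertical axis) of 6 of the genes with the lowest p for dKO against control, in all M-opsin cones, in M-opsin cones with a cone gene sum of at least 50 per 10000, and in S-opsin cones (horizontal axis), without TMM scaling, each point 1 mouse and each line a group mean. Control and dKO mice do not overlap in all M-opsin cones for any of the 6, which were picked by p in this comparison, and none passed the test across all genes.

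Markers of several other cell types lay above 0 in this comparison, without passing. The median log2 difference was 1.99 over 4 of 5 RPE markers tested, 0.83 over 5 rod markers, 0.79 over 5 amacrine markers, 0.69 over 3 of 5 vascular markers and 0.58 over 5 Müller glia markers, all of them above 0, against -0.000904 over all genes. The 5 ganglion cell markers were all below 0 (median -0.38), and bipolar markers had a median of 0.11. The summed RPE markers ran from 11.2 to 47.2 CPM in control and from 12.7 to 464 CPM in dKO mice, with S06 the highest, and the summed Müller glia markers from 70.2 to 384 CPM and from 244 to 650 CPM. No sum passed between the groups. Some differences above are given without cells that had 3 or more markers of another type. The part of these cell types in them was not otherwise tested. Rpe65, the isomerase of the RPE visual cycle, was at 6.24, 10.6, 7.10 and 0.837 CPM in control and 9.32, 159, 1.04, 48.9 and 6.52 CPM in dKO mice.

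The cone genes of the rule were somewhat lower in dKO mice, given as a description because the rule used them. Arr3 averaged 9637 ± 1390.2 CPM in control and 7302 ± 2836 in dKO mice, Gnat2 759 ± 147 and 566 ± 172 CPM, Opn1mw 2785 ± 486 and 2008 ± 748 CPM, and Opn1sw 401 ± 114 and 254 ± 47.2 CPM. All of these ranges overlapped between the groups. Cells with a cone gene sum under 50 per 10000 weighed most in S05 and S07, and their part in these levels was not tested. Of 22 further phototransduction genes none passed, and their median log2 difference was -0.09. The exchanger gene Slc24a2, which clears calcium from cones, was at 1100.5, 1510.3, 1575 and 1430.3 CPM in control and 957, 1115, 739.5, 1417 and 899 CPM in dKO mice (log2 -0.45, unadjusted p = 0.0284, adjusted p = 0.976). Cnga3, the cone channel subunit, had a log2 difference of -0.32 (adjusted p = 0.976).

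Among transcription factors, Nr2f2 was at 19.3, 18.4, 22.5 and 26.8 CPM in control and 9.32, 12.8, 17, 14.5 and 18.1 CPM in dKO mice. The groups did not overlap, as in 1.32% of all genes, and it did not pass (log2 -0.56, unadjusted p = 0.0225, adjusted p = 0.976). Prdm1, a photoreceptor fate factor, had a log2 difference of -0.42 (adjusted p = 0.976), and Thrb of -0.20 (adjusted p = 0.976). Of the genes that set M-opsin apart from S-opsin cones, Cdh12 had a log2 difference of -0.40 and Smug1 of -0.36 (adjusted p = 0.976 for each).

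No member of the stress, inflammation, retinoid, ribbon synapse, outer segment or metabolism lists passed. At an unadjusted p under 0.05 there were 4 of 29 metabolic genes and 3 of 24 stress genes, all higher in dKO mice, 2 of 36 ribbon synapse genes, both lower, 3 of 14 retinoid genes, all higher, 1 of 5 inflammation genes and 0 of 25 outer segment genes, beside 4.75% of all genes. Jun, an immediate early factor, was at 58, 37, 45.9 and 21.8 CPM in control and 94.1, 79.4, 48, 65 and 64.2 CPM in dKO mice (log2 0.76), Atf3, a stress-induced factor, had a log2 difference of 1.23 and Stat3 of 0.29. H2-D1, of antigen presentation, was the inflammation gene at that level (0.68). In the retinoid list the 3 were Rgr (2.40), Rlbp1 (0.90) and Rdh14 (0.94), the first and second of which are expressed by RPE or Müller glia. Of genes compared in other cells by the study, the microRNA host gene Trpm3 was at 272, 583, 326 and 279.7 CPM in control and 648, 971, 600.4, 712 and 422 CPM in dKO mice (log2 0.87, adjusted p = 0.976), and the noncoding Rn7sk at 42.4, 39.4, 26.3 and 18.4 and 21.4, 52, 544, 11.3 and 33.1 CPM, where S07 alone stood high.

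The change with deletion was also compared between M-opsin and S-opsin cones of the same mice. Of 12020 genes, 0 (0.0%) passed by edgeR's quasi-likelihood test, with 0.0658 the lowest adjusted p and 846 at an unadjusted p under 0.05, and limma-voom called 7. These included Kcnj10, a potassium channel of Müller glia, at 1.55 on the log2 scale (limma-voom adjusted p = 0.0476), and it was named after the call. For Sel1l3 the change in M-opsin minus the change in S-opsin cones was -0.68 on the log2 scale (unadjusted p = 0.0155, adjusted p = 0.620). Whether any gene responded differently in the 2 kinds of cone thus depended on the test used.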

How the data were processed

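Whole retinas of 9 mice were dissociated with papain and barcoded by split-pool labelling (Evercode) in 8 sublibraries. The authors mapped reads to GRCm39 with split-pipe, and per the submitters' notes used R 4.2.2 and Seurat 4.3.0. The deposited values are raw UMI counts per gene and cell, without normalization, and precede later steps. The strand used in counting and the handling of doublets are not given in the sources used here, and neither free RNA nor doublets were removed. The deposited cluster column holds barcoding wells, so cells were chosen by the rule stated in the report, and the members and lists were chosen with earlier results of these data known.

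Counts were summed per mouse and kind of cone (at least 10 cells) and compared with edgeR 4.0.16 (R 4.3.3), using its quasi-likelihood test, TMM and filterByExpr, over all genes tested, with Benjamini-Hochberg adjustment and a threshold of 0.05. The standard error came from the F statistic. M-opsin against S-opsin cones, and cells without against with Opn1sw, had the mouse as a block, since both kinds came from each mouse. Exact permutation tests, two-sided, compared the values of single mice. Named genes were the 12 (dKO: 6) with the lowest p in each direction and members of fixed lists, of which 1 that passed is not reported here. Alternatives were DESeq2 1.42.0, limma-voom (limma 3.58.1), library size scaling, no filter, and other choices of cells or mice. The fits were also tested on simulated data. Depth was 15079143 to 66528160 UMIs per mouse, and replicates are mice, so p-values measure the spread between them. Positions come from GENCODE M39, a later annotation of the same genome than the authors used, in which 36645 of 37725 gene names were found. Scripts used Python 3.11.15 with numpy 2.4.6, scipy 1.17.1 and pandas 2.3.3.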

Additional observations from a re-analysis of the deposited data

Results flagged for a closer look

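Of 82 groups of 4 or 5 mice examined, 5 held a mouse far from the others, where chance gives about 1 in 20 (4.1). In control mice, rod genes made up 1.30% of the M-opsin cone UMIs of S04 against 0.407% to 0.435% in the other 3. In dKO mice, Sel1l3 stood at 55.9 CPM in S05 against 6.96 to 20.9 CPM in the other 4. The log2 difference of M-opsin over S-opsin cones in S07 was 1.24 for D930007P13Rik against 2.04 to 2.32 in the other dKO mice, and 0.26 for Tshz2 against 0.48 to 0.54. In control mouse S03 the same difference for Magi2 was -0.35 against -0.28 in the other 3. S04, S05 and S07 are the libraries with the highest share of rods, and the part of rod RNA in these values was not tested.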

How the results depend on the processing

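No paired analysis was possible because no label ties a control mouse to a dKO mouse. For comparisons within a mouse, the mouse was the block, and the fit with no replicate block gave 88 genes, against 451, for M-opsin against S-opsin cones and 20, against 49, for cells without against with Opn1sw.

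M-opsin against S-opsin cones gave 1001 genes with no filter on low counts, 65 with an absolute log2 difference above 1, 709 without the top 5% of cells by UMIs and 694 with a cone gene sum of at least 50 per 10000. With single mice left out it gave 288 to 427. M-opsin cones without against with Opn1sw gave 122 genes by DESeq2, 673 with no filter, 28 with a log2 difference above 1, 74 with cells thinned to 1 depth, 27 without S04, S05 and S07, and 21 to 99 with single mice left out. The dKO comparison gave 7 by DESeq2, 6 with no filter, 1 without S04, S05 and S07, and 0 to 1 with single mice left out. The difference of responses gave 7 by limma-voom. The share of M-opsin cones among cones differed by -4.54 percentage points, by -5.71 to -3.13 with single mice left out, by -5.84 (exact permutation p = 0.0397) with a cone gene sum of at least 50, and by -9.67 (exact permutation p = 0.0476) with cones thinned to 1 depth, but by -3.75 (exact permutation p = 0.151) with Opn1mw at least 2 times Opn1sw, -4.43 (exact permutation p = 0.143) with S06 and S07 summed as 1 mouse and -5.24 (exact permutation p = 0.0714) with a sum of at least 10. The difference in median UMIs (384.9) was -60.3 without S04 and -229 without S06, within -229 to 844, and that in rod gene share (0.266 percentage points) was -0.0203 without S07, within -0.0203 to 0.487. Slit2 in dKO mice was at -0.24 without cells that had 3 or more markers of another type. The cause of these changes was not tested. Of the results for named genes under alternatives, 502 kept direction and side of the threshold in M-opsin against S-opsin cones and 2 lost the call, 454 and 44 in cells without against with Opn1sw, and 254 kept and 11 gained a call in dKO against control. The cone gene sum of at least 50 and the set without S04, S05 and S07 were chosen after seeing the data. So was the split of under 5% against at least 20% Opn1sw. S06 and S07 were summed for their shared animal number, although their sex genes differed. Cells low in cone RNA, few cells per mouse and overlapping genes limit what these counts can show.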
